A study of Mus musculus with 12 samples.

Results

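The genes described here are the amino acid transporters of 6 solute carrier families, Slc1, Slc3, Slc7, Slc36, Slc38 and Slc43, as measured in mouse type 1 conventional dendritic cells (cDC1). All genes whose symbol begins with one of these family names and a member number were taken, provided that a probe set names them alone, and the brightest probe set stands for each gene. This gave 43 of the 19938 genes tested: 7 in Slc1, 2 in Slc3, 16 in Slc7, 4 in Slc36, 11 in Slc38 and 3 in Slc43. One of the 16, Slc7a6os, is named for lying opposite Slc7a6 and is not a transporter; it is counted because its symbol meets the rule.

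The cDC1 were sorted from the spleen or the skin-draining lymph nodes of naive C57BL/6 mice, and RNA was hybridised to 12 Affymetrix arrays in 4 groups of 3. Every mouse carried CD40 fl/fl, a Cd40 gene with loxP sites on both alleles. Mice labelled Xcr1++ carried no Cre, and mice labelled Xcr1Cre+ carried 1 allele of Xcr1-Cre, which is meant to delete Cd40 wherever the Xcr1 locus is active, that is, in cDC1. Sorted cells lacked B220 and Sirpa and bore XCR1 and high MHC class II; spleen cells were high for CD11c, whereas the lymph node cells were the migratory cDC1, intermediate for CD11c. The groups therefore differ in organ and in sort gate together, and these cannot be told apart. The mice's age and sex, and whether arrays of a group came from separate animals, are not given in the sources used here; the p-values rest on how far these arrays vary and may reflect technical spread alone.

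Amino acids cross membranes through carriers with overlapping substrates. Slc3a2, known as CD98, and Slc3a1 are heavy chains that bring Slc7 light chains to the cell surface, where the pairs exchange one amino acid for another; Slc7a1 to Slc7a3 carry cationic amino acids such as arginine without a heavy chain. Slc1 members carry glutamate or small neutral amino acids with sodium, Slc38 members carry glutamine and other neutral amino acids, Slc36 members carry small amino acids, several of them together with protons, and Slc43 members include facilitative carriers of large neutral amino acids. Dendritic cells draw on these carriers for protein synthesis and glutathione, and amino acids reaching the lysosome are sensed there by the kinase complex mTORC1.

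Tissue was the main axis of variation over all genes, with 79.5% of the variance on the first principal component, and the second component (11.2%) set the arrays numbered 1 apart. Cd40, the targeted gene, did not follow the labels on every array: on arrays numbered 3 it was higher with the Xcr1Cre+ label (569 against 309 in spleen and 3358 against 1542 in lymph node), and on arrays numbered 1 and 2 it was lower. Where its probes lie relative to the deleted part is not known here, so groups are called by their labels. All 12 markers of a cDC1 list lay above background in every group. Their summed intensity was 36939 to 51375 on spleen arrays and 12691 to 16534 on lymph node arrays. Xcr1 itself was at 1945 to 3508 in spleen and 203 to 286 in lymph node. Clec9a, Cadm1, Tlr3, Wdfy4, Itgae, Itgax and Naaa were also lower in lymph node, without overlap. Batf3 was higher there (1423 to 1946 in spleen, 2358 to 3020 in lymph node). Flt3 (2070 to 3851, 3098 to 5549), Zbtb46 (270 to 348, 329 to 533) and Irf8 (3611 to 5870, 3385 to 4671) overlapped between tissues. The 15 measured migratory maturation genes summed to 23248 to 31271 in spleen and 68142 to 86181 in lymph node. Cd80 (2412 to 3373 in spleen, 1221 to 1538 in lymph node) and Cd86 (5887 to 7387, 2171 to 3268) were lower in lymph node, and the others were higher. Of 11 measured macrophage and monocyte markers, 5 (Adgre1, Mertk, Fcgr1, C1qb and C1qc) were near background in all groups, and the list summed to 3961 to 5516 in spleen and 1328 to 1485 in lymph node. Cd14 (863 to 2388 in spleen, 74.6 to 192 in lymph node), Lyz2 (886 to 1184, 55.4 to 119) and Cd68 (995 to 1554, 179 to 312) were lower in lymph node. Vcam1 was higher there (201 to 340, 558 to 699), and over all arrays Csf1r ran from 67.0 to 107 and C1qa from 54.8 to 75.2. Further values are given in spleen and then lymph node. The B cell list summed to 524 to 644 and 374 to 482, and T cells to 794 to 924 and 765 to 1576. NK cells summed to 285 to 496 and 254 to 380. The cDC2 list summed to 647 to 835 and 700 to 1264, and pDC to 2179 to 3013 and 2772 to 3719. In the cDC2 list Cd300a was lower in lymph node (236 to 367, 82.1 to 98.3). Irf4 (108 to 175, 225 to 487) and Esam (67.1 to 96.4, 166 to 461) were higher. Bst2 was the brightest pDC marker (1403 to 2133, 1952 to 2929). Ccr9 was lower in lymph node (248 to 341, 36.2 to 50.5). Spib (30.9 to 43.1, 74.7 to 152) and Tcf4 (278 to 389, 442 to 565) were higher. Langerhans cell and keratinocyte markers summed to 513 to 814 and 472 to 596, and neutrophils to 275 to 299 and 281 to 379. Erythroid cells summed to 152 to 188 and 131 to 168, and stromal and endothelial cells to 1039 to 1182 and 1067 to 1679. In the stromal list Ccl19 was higher in lymph node (94.8 to 142, 429 to 936) and Pecam1 lower (336.5 to 531, 43.1 to 66.0). Near background in all groups were 4 of 9 measured B cell, 2 of 8 T cell and 3 of 6 NK cell markers. So were 3 of 8 for cDC2, 1 of 7 for pDC and 3 of 7 for Langerhans cells and keratinocytes. The same held for 6 of 8 neutrophil, 2 of 3 erythroid and 3 of 10 stromal markers. The part of these cells in the results below was not tested, and in bulk samples fewer cells of a type and less RNA per cell cannot be told apart.

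Many members gave no signal that could be told from background. A member was called near background in a group when its mean lay under the 95th percentile of 1027 olfactory receptor genes, an intensity of 52.6 to 57.1 depending on the group. By this measure 18 of the 43 were near background in all 4 groups: the glutamate carriers Slc1a1, Slc1a6 and Slc1a7, the heavy chain Slc3a1, the Slc7 genes Slc7a2, Slc7a3, Slc7a9, Slc7a11, Slc7a12, Slc7a13, Slc7a14 and Slc7a15, the proton-coupled Slc36a2, the Slc38 genes Slc38a3, Slc38a4, Slc38a5 and Slc38a11, and the large neutral carrier Slc43a1. A further 3 were near background in some groups: Slc1a3 in both spleen groups, Slc36a3 in both lymph node groups and Slc7a4 in 3 groups. The other 22 were above background throughout. Among the 18 is Slc7a11, the light chain of the cystine and glutamate exchanger.

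**Figure D1:**
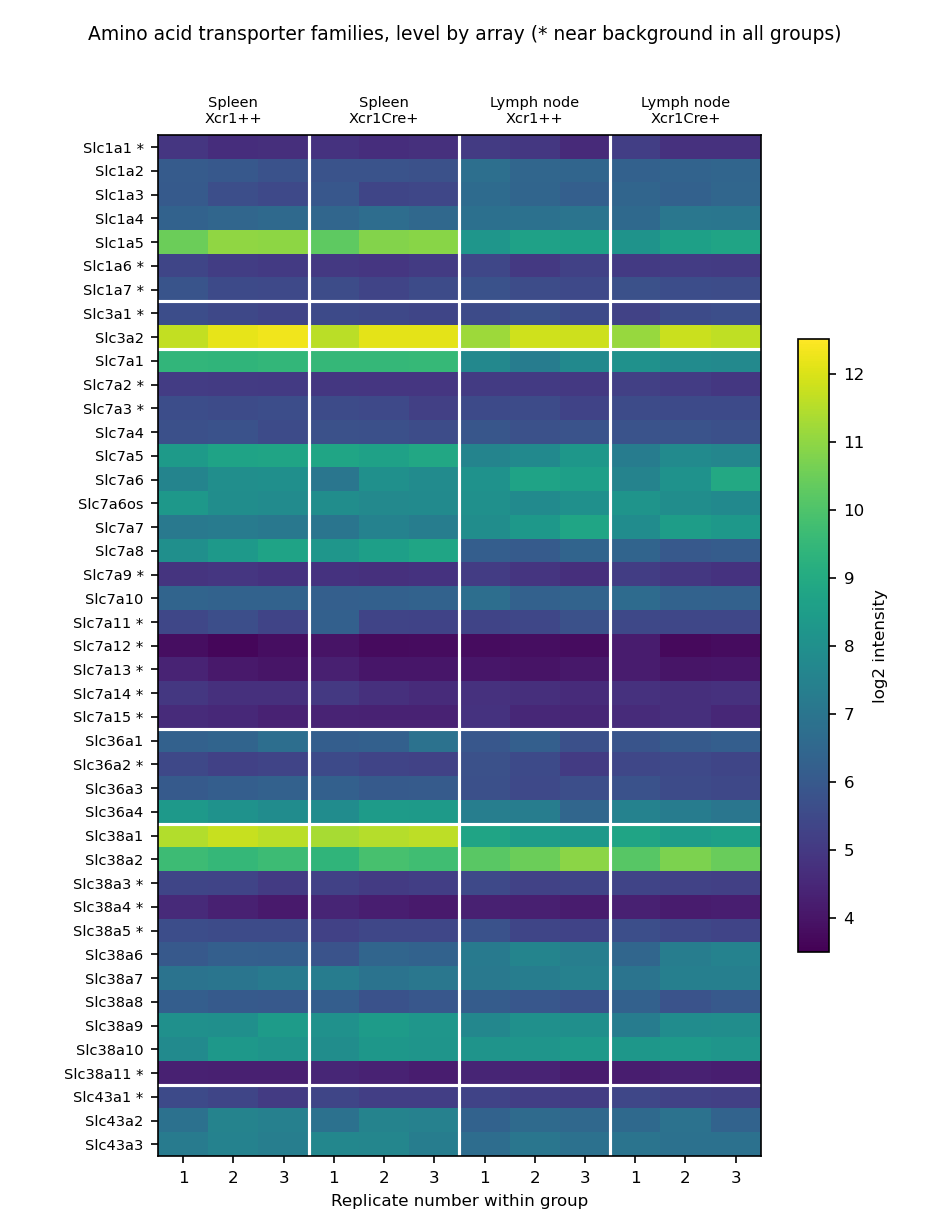
log2 intensity of the 43 genes (rows, by family) on the 12 arrays (columns, replicates 1 to 3 of each group); an asterisk marks the 18 genes near background in all groups. Slc38a1 and Slc1a5 stand out as darker on the 6 lymph node arrays than on the 6 spleen arrays.

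The first comparison asks how migratory lymph node cDC1 differ from spleen cDC1, and was made separately in each genotype label, on arrays that the labels do not share. Of the 43 genes, 6 were higher and 9 lower in lymph node on arrays labelled Xcr1++, and 5 were higher and 9 lower on arrays labelled Xcr1Cre+ (limma, Benjamini-Hochberg adjusted p under 0.05). That is 34.9% and 32.6% of the genes, beside 26.1% and 28.3% of all genes tested; no test was made of whether these shares differ. By direction, 12.9% of all genes were higher and 13.2% lower on arrays labelled Xcr1++, and 13.1% and 15.2% on those labelled Xcr1Cre+. The members' median difference was 0.01 and 0.07 on the log2 scale, beside 0.03 and 0.07 over all genes, close to 0 in both. Called in the same direction in both were 14 genes, 5 higher and 9 lower, beside 10.4% of all genes higher in both and 12.3% lower in both. Those lower in lymph node were Slc1a5, Slc7a1, Slc7a5, Slc7a8, Slc36a3, Slc36a4, Slc38a1, Slc43a2 and Slc43a3, and those higher were Slc1a2, Slc1a3, Slc7a7, Slc38a2 and Slc38a6. The values without any single array are named below where they end a call.

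**Figure D2:**
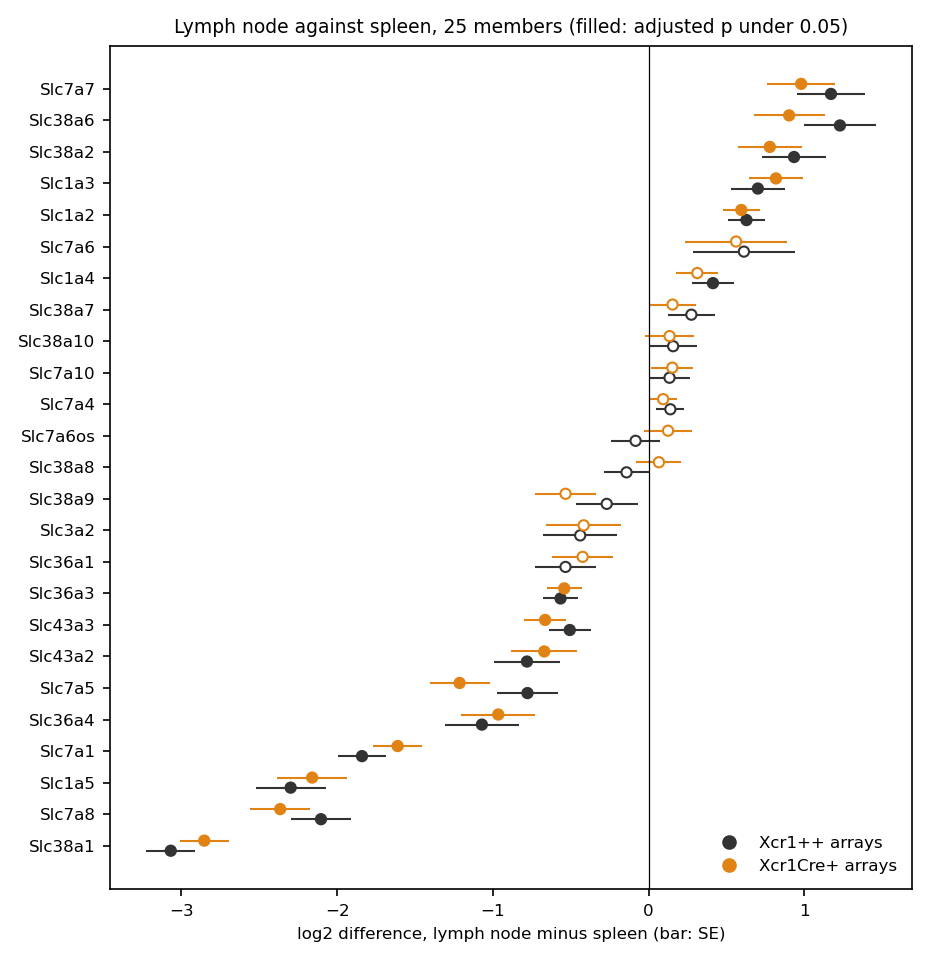
log2 difference, lymph node minus spleen, for the 25 genes above background in at least 1 group, on arrays labelled Xcr1++ (black) and Xcr1Cre+ (orange); bars are SE, n = 3 arrays per group, and filled points passed the adjusted threshold. Slc38a1 lies farthest to the left at -3.07 and -2.85, and Slc38a6 and Slc7a7 lie farthest to the right.

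The heavy chain Slc3a2 (probe set 10465772, chromosome 19) was well above background everywhere. Its intensity was 3248, 4629 and 5111 on spleen arrays labelled Xcr1++ and 3021, 4455 and 4433 on those labelled Xcr1Cre+, against 2347, 3650 and 3598, and 2225, 3515 and 3204, on the corresponding lymph node arrays. Spleen and lymph node overlapped because the array numbered 1 was the lowest in each of the 4 groups. The difference was -0.44 (SE 0.24, limma adjusted p = 0.233) and -0.42 (SE 0.24, adjusted p = 0.229) on the log2 scale and was not called. Between arrays of the same number it was -0.47, -0.34 and -0.51, and -0.44, -0.34 and -0.47. With the replicate number as a block, limma called it in both (SE 0.07, adjusted p = 9.27e-05 and 0.000143).

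Among the light chains known to pair with Slc3a2, Slc7a5 and Slc7a8 fell in lymph node and Slc7a7 rose. Slc7a5 (LAT1, a carrier of leucine and other large neutral amino acids; probe set 10582275, chromosome 8) had intensities of 340, 425 and 438 on spleen arrays labelled Xcr1++ and 446, 407 and 473 on those labelled Xcr1Cre+, and of 190, 217 and 304, and 155, 223 and 199, in lymph node. The tissues did not overlap under either label, and the fall was 1.71-fold (log2 -0.78, SE 0.19, limma adjusted p = 0.0074) and 2.32-fold (log2 -1.21, SE 0.19, adjusted p = 0.00025). Slc7a8 (LAT2, which carries large and small neutral amino acids; probe set 10419854, chromosome 14) had intensities of 251, 320 and 417, and 303, 386 and 442, in spleen, and of 72.7, 68.5 and 84.9, and 83.9, 65.1 and 69.0, in lymph node. All 6 lymph node values lay below the lowest spleen value and not far above the background level. The difference was -2.10 (SE 0.19, limma adjusted p = 1.76e-06) and -2.37 (SE 0.19, adjusted p = 5.41e-07), or 4.30-fold and 5.15-fold lower.

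Slc7a7 (y+LAT1, which exports cationic amino acids in exchange for neutral ones) went the other way. It ran from 128 to 178 on spleen arrays and from 238 to 445 on lymph node arrays, with no overlap. The rise was 1.17 (SE 0.22, limma adjusted p = 0.000977) and 0.98 (SE 0.22, adjusted p = 0.00361) on the log2 scale. Slc7a7 and Slc7a8, which moved in opposite directions, lie on the same chromosome with 15 protein-coding genes between them. Slc7a6 (y+LAT2, a relative of Slc7a7 with similar substrates) was at 131 to 256 in spleen and 184 to 492 in lymph node and was not called (log2 0.61 and 0.56, SE 0.32, limma adjusted p = 0.22 and 0.235); the block on the replicate number called it (limma adjusted p = 0.0176 and 0.0257). Slc7a10 (Asc-1, a carrier of small neutral amino acids) lay between 74.1 and 109 on all arrays. Slc7a6os, at 216 to 318, had tissue differences of -0.08 and 0.12 on the log2 scale. It neighbours Slc7a6 on the other strand, and whether its probe set also reads that gene is not known here.

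Of the 5 cationic and related carriers, Slc7a1 (CAT1, the arginine and lysine carrier; probe set 10535852, chromosome 5) alone was above background in all groups. Its intensity was 695, 664 and 701 on spleen arrays labelled Xcr1++ and 713, 713 and 739 on those labelled Xcr1Cre+, and 211, 155 and 217, and 268, 231 and 213, in lymph node. The spleen values were tightly grouped and far above all 6 lymph node values. The fall was 3.58-fold (log2 -1.84, SE 0.16, limma adjusted p = 7.53e-07) and 3.05-fold (log2 -1.61, SE 0.16, adjusted p = 2.62e-06). Slc7a4, a relative without a settled substrate, stayed at 47.5 to 59.9.

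Promoter sequence was read from RefSeq windows of the GRCm38.p6 build, matched by symbol for 32 of the 43 members. Of the called genes, Slc1a5, Slc7a5, Slc38a1 and Slc43a3 were not read here. The 250 bases before the annotated start are shown for the members whose tissue differences the text turns on and whose window was in the table. Capitals mark a match to TGATGNAA, the composite element bound by ATF4, the factor of the amino acid response, with C/EBP proteins; the window of Slc7a7 has 1 match and the others have none. The windows are Slc7a1 at chr5:148399905-148400154, Slc7a8 at chr14:54781887-54782136, Slc7a7 at chr14:54417945-54418194 and Slc38a2 at chr15:96699729-96699978, all on the minus strand, and are printed 5′ to 3′ in the sense of the gene. The table has 2 starts for Slc7a1 and 5 for Slc7a7, and the first was used.
Slc7a1: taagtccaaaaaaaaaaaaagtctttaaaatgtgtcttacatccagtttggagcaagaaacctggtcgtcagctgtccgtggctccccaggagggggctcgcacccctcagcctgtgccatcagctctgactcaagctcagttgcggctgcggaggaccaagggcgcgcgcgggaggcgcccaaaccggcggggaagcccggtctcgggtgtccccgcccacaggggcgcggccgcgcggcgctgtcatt
Slc7a8: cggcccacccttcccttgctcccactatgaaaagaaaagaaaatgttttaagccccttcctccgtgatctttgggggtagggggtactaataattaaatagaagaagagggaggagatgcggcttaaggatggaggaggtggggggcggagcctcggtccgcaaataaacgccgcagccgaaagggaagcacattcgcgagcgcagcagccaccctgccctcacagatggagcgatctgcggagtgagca
Slc7a7: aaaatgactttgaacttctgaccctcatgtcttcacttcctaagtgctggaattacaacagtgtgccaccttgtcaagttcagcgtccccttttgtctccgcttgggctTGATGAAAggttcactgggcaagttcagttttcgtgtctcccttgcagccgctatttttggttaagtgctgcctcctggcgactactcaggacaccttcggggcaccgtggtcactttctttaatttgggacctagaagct
Slc38a2: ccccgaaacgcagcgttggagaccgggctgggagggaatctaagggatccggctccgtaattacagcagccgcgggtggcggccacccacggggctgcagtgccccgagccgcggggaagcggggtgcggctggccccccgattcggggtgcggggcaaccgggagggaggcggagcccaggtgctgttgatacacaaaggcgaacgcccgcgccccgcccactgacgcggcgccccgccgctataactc
Over both strands, TGATGNAA was in 2 of the 32 members' windows (Slc7a7 and Slc7a11), or 6.25%, and in 3.53% of all 27025 windows. CACGTG, the E-box read by MYC and by the lysosomal factors of the TFEB family, was in 7 (21.9%), against 6.05% of all windows: Slc1a6, Slc1a7, Slc7a14, Slc36a1, Slc38a5, Slc38a7 and Slc43a1, none of them called between tissues. The NF-kB motif of 10 letters was in 0 of the 32 and in 1.4% of all windows. The windows differ in base composition: the G and C content was 62.4% for Slc7a1, 55.6% for Slc7a8, 48.8% for Slc7a7 and 72.0% for Slc38a2, and the median of all windows was 52.0%. A match describes the letters only.

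In the Slc1 family 1 gene fell in lymph node, and the others that were called rose. Slc1a5 (ASCT2, a sodium-coupled exchanger that takes up glutamine; probe set 10550332, chromosome 7) had intensities of 1413, 2037 and 1991 on spleen arrays labelled Xcr1++ and 1230, 1819 and 1913 on those labelled Xcr1Cre+, against 301, 406 and 394, and 282, 396 and 429, in lymph node. The array numbered 1 was the lowest in every group, and the tissues were still far apart. The fall was 4.92-fold (log2 -2.30, SE 0.23, limma adjusted p = 3.17e-06) and 4.47-fold (log2 -2.16, SE 0.23, adjusted p = 5.41e-06). Slc1a4 (ASCT1, a carrier of alanine, serine and cysteine) rose slightly on arrays labelled Xcr1++ (log2 0.41, SE 0.14, limma adjusted p = 0.0371) and was not called on those labelled Xcr1Cre+ (log2 0.31, SE 0.14, adjusted p = 0.108; with the replicate block 0.0304). Its Xcr1++ call was lost when any of these arrays was left out: spleen Xcr1++ replicate 1 (limma adjusted p = 0.129) or 2 (0.0911), spleen Xcr1Cre+ replicate 3 (0.0537), or lymph node Xcr1++ replicate 2 (0.0755) or 3 (0.117). It was also lost with quantile normalisation (0.0577) and with array medians centred (0.104).

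The glutamate carriers Slc1a2 and Slc1a3, best known from astrocytes, were low in spleen and higher in lymph node. Slc1a2 ran from 52.8 to 68.5 in spleen and from 78.8 to 111 in lymph node, and rose by 0.63 (SE 0.12, limma adjusted p = 0.000978) and 0.59 (SE 0.12, adjusted p = 0.00146) on the log2 scale. Slc1a3 ran from 41.3 to 66.3 and from 75.6 to 100 with no overlap, and rose by 0.70 (SE 0.17, limma adjusted p = 0.0067) and 0.82 (SE 0.17, adjusted p = 0.00225). In spleen both lay close to the background level, and the group means of Slc1a3 lay under it.

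The largest tissue difference in the families was in Slc38a1 (SNAT1, a sodium-coupled glutamine carrier; probe set 10431874, chromosome 15). Its intensity was 2792, 3418 and 3053 on spleen arrays labelled Xcr1++ and 2568, 2903 and 3093 on those labelled Xcr1Cre+. In lymph node it was 432, 354 and 324, and 435, 357 and 393. All 6 lymph node values were far below all 6 spleen values. The fall was 8.38-fold (log2 -3.07, SE 0.16, limma adjusted p = 8.64e-09) and 7.22-fold (log2 -2.85, SE 0.16, adjusted p = 1.53e-08); of the 19938 genes, 105 and 140 fell further. A second, dimmer probe set of the gene had log2 differences of -2.76 and -2.59 (SE 0.32).

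Its neighbour Slc38a2 (SNAT2, the carrier that cells are known to raise when amino acids run short) was higher in lymph node. It ran from 672 to 945 in spleen and from 1149 to 1939 in lymph node, with no overlap, a rise of 0.93 (SE 0.21, limma adjusted p = 0.00326) and 0.78 (SE 0.21, adjusted p = 0.0106) on the log2 scale. Without lymph node Xcr1Cre+ replicate 2 the adjusted p on arrays labelled Xcr1Cre+ was 0.0515. Slc38a1, Slc38a2 and Slc38a4 lie side by side on chromosome 15 with 0 protein-coding genes between them; Slc38a1 fell, Slc38a2 rose and Slc38a4 was near background. Slc38a6, an orphan member whose substrates are less settled, ran from 56.3 to 86.6 in spleen and from 89.3 to 187 in lymph node, a rise of 1.23 (SE 0.23, limma adjusted p = 0.000922) and 0.90 (SE 0.23, adjusted p = 0.00812).

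The other 4 Slc38 genes above background were not called. Slc38a7 (a lysosomal exporter of glutamine and asparagine) ran from 121 to 175 over all arrays, Slc38a8 from 54.0 to 77.8 and Slc38a10 from 225 to 329. Slc38a9, the lysosomal arginine sensor of mTORC1, ran from 254 to 349 in spleen and from 157 to 256 in lymph node, with differences of -0.27 (SE 0.20, limma adjusted p = 0.419) and -0.53 (SE 0.20, adjusted p = 0.0611). With the replicate block the second was called (limma adjusted p = 0.00524), as it was without spleen Xcr1Cre+ replicate 1 (0.0489). Its other probe set gave 0.11 and -0.16 (SE 0.17); the difference between the probe sets was not tested.

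**Figure D3:**
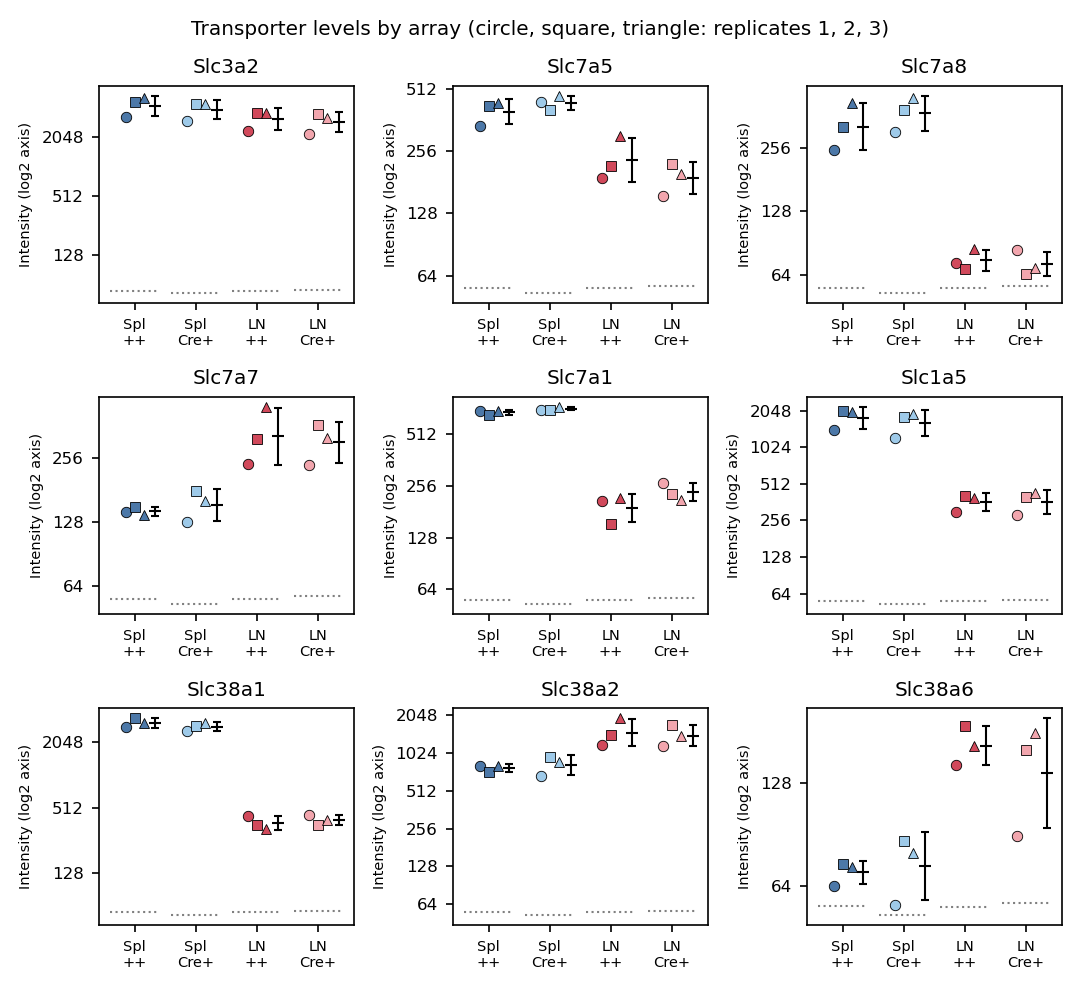
Intensity (log2 axis) of 9 members on each array, by group (Spl, spleen; LN, lymph node; ++, Xcr1++; Cre+, Xcr1Cre+); the black dash and bar give the geometric mean and SD on the log2 scale, n = 3, and the dotted line the background level of each group. Slc38a1 and Slc38a2, which are neighbours in the genome, show opposite tissue differences, and the circle (replicate 1) is the lowest point of Slc3a2 in each group.

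Of the Slc36 carriers, the 2 called were lower in lymph node. Slc36a4 ran from 236 to 346 in spleen and from 88.9 to 180 in lymph node, and fell 2.10-fold (log2 -1.07, SE 0.24, limma adjusted p = 0.00338) and 1.95-fold (log2 -0.97, SE 0.24, adjusted p = 0.00664). Slc36a3 ran from 66.5 to 77.8 and from 44.1 to 54.5 and was thus near background in lymph node (log2 -0.57 and -0.54, SE 0.11, limma adjusted p = 0.00145 and 0.00198). Slc36a1 (PAT1, a lysosomal exporter of small amino acids) ran from 72.4 to 119 and from 51.4 to 74.8. It was not called (log2 -0.53 and -0.42, SE 0.20, limma adjusted p = 0.0618 and 0.132). On arrays labelled Xcr1++ it passed with the replicate block (0.0234), and when spleen Xcr1Cre+ replicate 3 (0.0253) or lymph node Xcr1++ replicate 2 (0.0372) was left out.

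Slc43a2 (LAT4, a facilitative carrier of large neutral amino acids) ran from 115 to 185 in spleen and from 79.8 to 119 in lymph node. It fell on arrays labelled Xcr1++ (log2 -0.78, SE 0.21, limma adjusted p = 0.0136) and on those labelled Xcr1Cre+ (log2 -0.67, SE 0.21, adjusted p = 0.0299), where the groups overlapped. The first call was lost without spleen Xcr1++ replicate 2 (limma adjusted p = 0.0705) or 3 (0.0581). The second was lost without spleen Xcr1Cre+ replicate 2 (0.128) or 3 (0.114) or lymph node Xcr1Cre+ replicate 1 (0.0709) or 3 (0.12). Slc43a3, a family member best described as a purine nucleobase carrier, ran from 152 to 204 and from 104 to 130 and fell (log2 -0.51, SE 0.13, limma adjusted p = 0.0113, and -0.66, SE 0.13, adjusted p = 0.00171). Without spleen Xcr1++ replicate 2 the first was 0.0595.

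The comparison the study was made for sets arrays labelled Xcr1Cre+ against arrays labelled Xcr1++ within each tissue. None of the 43 transporter genes was called in spleen or in lymph node, and 0% of all genes were called in either (limma, adjusted p under 0.05). At an unadjusted p under 0.05, 0 members passed in spleen and 0 in lymph node, beside 357 (1.79%) and 402 genes (2.02%) over all. With the replicate block these were 0 and 1 members, beside 886 and 1360 of the 19938 genes. With array weights they were 9 and 1 members, beside 3844 and 3273 genes. At the adjusted threshold 0 members were called under both alternatives. Of all genes, 0 were called with the block, and 51 (0.256%) and 2 (0.01%) with array weights. Among the 25 genes above background in some group, differences ran from -0.21 (Slc7a6) to 0.21 (Slc7a8) in spleen and from -0.29 (Slc7a5) to 0.30 (Slc7a1) on the log2 scale in lymph node. All 25 intervals at 95% lay within 1 log2 unit of 0 in both tissues, reaching from -0.91 to 0.64 in spleen and from -0.96 to 0.74 in lymph node. With the labels taken as given, each interval gives the range of differences these arrays leave possible for that gene, and a p that misses the threshold does not show that the labels are alike. Cd40, the targeted gene, was itself not called in either tissue, and on arrays numbered 3 it was higher with the Xcr1Cre+ label. Whether any label was exchanged was not tested, and an exchange would change these differences and intervals.

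The smallest p in lymph node belonged to Slc7a1, at 211, 155 and 217 on arrays labelled Xcr1++ and 268, 231 and 213 on those labelled Xcr1Cre+. The groups overlapped, and the difference was 0.30 (95% interval -0.03 to 0.64, limma unadjusted p = 0.0743). Next were Slc1a2, at 111, 89.6 and 87.3 against 78.8, 82.8 and 86.6 (log2 -0.21, limma unadjusted p = 0.102), which was the only member whose groups did not overlap in lymph node, and Slc7a5, at 190, 217 and 304 against 155, 223 and 199 (log2 -0.29, unadjusted p = 0.158). In spleen the 3 smallest p belonged to genes near background. Slc38a5 was at 49.0, 47.1 and 46.6 against values from 37.5 to 43.2 (log2 -0.21, limma unadjusted p = 0.106). Slc7a3 was at 49.5, 46.8 and 49.9 against 47.6, 45.2 and 37.0 (log2 -0.18, limma unadjusted p = 0.109), and Slc1a6 at 41.5, 34.9 and 32.3 against 32.2, 30.5 and 33.1 (log2 -0.17, limma unadjusted p = 0.142). Groups did not overlap for 4 members in spleen (Slc7a1, and Slc7a2, Slc7a9 and Slc38a5 near background) and 1 in lymph node, or 9.30% and 2.33% of the 43, beside 7.64% and 4.72% of all genes. Whether the genotype difference itself differed between tissues was tested too: 0 members and 0% of all genes were called by limma. At an unadjusted p under 0.05 these were 0 members and 326 genes (1.64%), and among the 25 members above background in some group the differences ran from -0.44 (SE 0.27, Slc7a5) to 0.23 (Slc7a1).

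**Figure D4:**
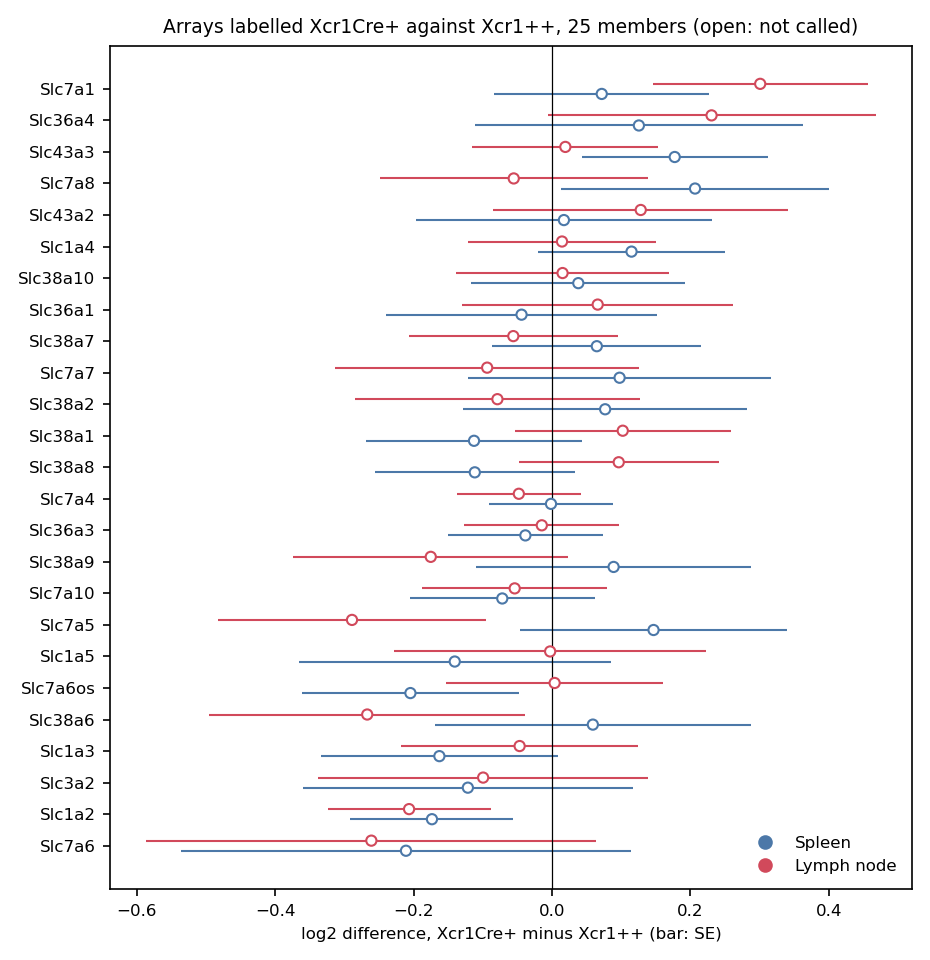
log2 difference, arrays labelled Xcr1Cre+ minus Xcr1++, for the same 25 genes in spleen (blue) and lymph node (red); bars are SE, n = 3 arrays per group, and open points were not called. All points lie between -0.29 and 0.30.

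Other genes of amino acid uptake, sensing and use were counted on lists chosen for their role. Near background in all groups were 10 of 31 outside carriers, 0 of 38 mTORC1 genes and 4 of 25 ATF4 genes. So were 0 of 17 tRNA synthetases and 2 of 18 cystine and glutathione genes. The shares of all genes given below are of all 19938, including those near background. A fit of only the 12508 genes above background in some group called 42.5% on arrays labelled Xcr1++ and 44.4% on those labelled Xcr1Cre+. Of 31 amino acid carriers outside the 6 families, 5 were higher and 4 lower in lymph node on arrays labelled Xcr1++, and 6 and 6 on those labelled Xcr1Cre+ (29.0% and 38.7%, beside 26.1% and 28.3% of all genes). The lysosomal peptide and histidine carrier Slc15a3 fell (log2 -2.46 and -2.13, limma adjusted p = 4.5e-08 and 1.57e-07), from 701 to 1042 in spleen to 160 to 194 in lymph node. The imino acid carrier Slc6a20a rose by 1.32 and 1.16, the taurine carrier Slc6a6 by 1.25 and 1.17, and the lysosomal cationic exporter Slc66a1 fell (-0.90 and -1.22; limma adjusted p at most 0.00597 for these 3). Of 38 genes of mTORC1 amino acid sensing, 10 were higher and 11 lower, and 7 and 12 (55.3% and 50%, beside 26.1% and 28.3% of all genes). The arginine sensor subunit Castor2 rose by 3.47 and 3.27, from 86.2 to 109 in spleen to 879 to 1288 in lymph node, and Fnip2, a folliculin partner, fell (-2.11 and -2.21). Of the Rag GTPases that recruit mTORC1 to the lysosome, Rragd rose by 1.87 and 1.97 from a spleen level of 42.9 to 71.0, close to background, while Rraga fell (-1.78 and -1.88; limma adjusted p at most 7.17e-05 for these 4).

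Of 25 genes of the ATF4 amino acid response, 6 were higher and 6 lower under each label (48.0%, beside 26.1% and 28.3% of all genes). Atf4 itself had differences of -0.23 and 0.01 (limma adjusted p = 0.391 and 0.973), and Asns, the asparagine synthetase, was near background. Nupr1 rose by 2.08 and 2.02 and the mitochondrial folate enzyme Mthfd2 by 2.07 and 1.95, while Shmt2, the mitochondrial serine hydroxymethyltransferase of the same pathway, fell (-1.54 and -1.60), as did the proline enzyme Aldh18a1 (-1.16 and -1.70). Of 17 cytosolic tRNA synthetases, 2 were higher and 11 lower, and 1 and 11; of all genes 12.9% were higher and 13.2% lower, and 13.1% and 15.2%. The list had a median of -0.80 and -1.04 on the log2 scale beside 0.03 and 0.07 over all genes. Eprs (-1.82 and -1.90), Farsb (-1.61 and -1.70) and Iars (-1.56 and -1.58) fell, and Wars, the tryptophan enzyme known to answer to interferon, rose by 1.61 and 1.42. Of 18 genes of cystine and glutathione handling, 3 were higher and 5 lower, and 4 and 6 (44.4% and 55.6%, beside 26.1% and 28.3% of all genes). The heme oxygenase Hmox1 (-2.90 and -2.40), the peroxidase Gpx1 (-1.68 and -1.53) and Cd44 (-1.60 and -1.40), a variant of which stabilises the cystine exchanger, fell, and Gclc, the catalytic subunit of glutathione's first enzyme, rose by 1.14 and 1.46. All of the differences named for these 3 lists, apart from Atf4 and Asns, had a limma adjusted p of at most 0.00827, and 0 genes of any of the 5 lists were called between genotype labels.

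**Figure D5:**
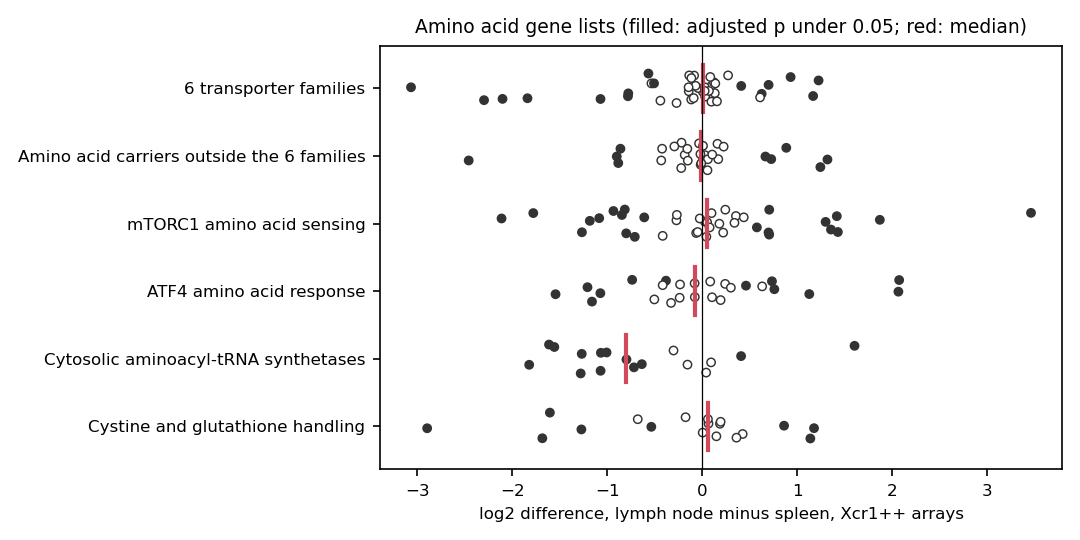
log2 difference, lymph node minus spleen, on arrays labelled Xcr1++, for the transporter families and 5 other gene lists; each point is a gene, filled where the adjusted p was under 0.05, and the red line is the list median. The tRNA synthetases lie mostly to the left of 0 (median -0.80), whereas the transporters spread to both sides.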

How the data were processed

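RNA of sorted cDC1 was measured on 12 arrays. The authors deposited 1 intensity per probe set and array, which per the submitters' processing notes came from Affymetrix Expression Console with RMA; versions are not given in the sources used here. The values are linear, so log2 was taken of the deposited intensities. RMA shares a normalisation across arrays, which can hide a shift common to all genes. Of 28853 probe sets, 21789 carried 1 symbol and 1621 several (not used); the rest were not listed in the annotation. The number of arrays limits the precision.

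In R 4.3.3, with tables read by the package data.table (version 1.17.8), limma 3.58.1 estimated 4 group means for each of 19938 genes over 12 arrays. Tests were two-sided, with eBayes using a trend, and p-values were adjusted by Benjamini-Hochberg over all genes of a comparison and called at 0.05. Members and lists were chosen with earlier results of these data known. Values on every array are given for members called in both tissue comparisons without overlap and at least 1 on the log2 scale, for Slc3a2 and Slc7a5, and for the 3 smallest p of each genotype comparison; of each other list, up to 4 genes with the largest tissue difference are named. Atf4, Asns and the further members drawn by array were chosen after their values were seen. Alternatives were other scalings, filters, probe set rules, array weights, the replicate number as a block and leaving out arrays. Arrays of the same number deviated together from their group means (r of 0.573 to 0.729 among arrays numbered 1, 0.309 to 0.449 among those numbered 2 and 0.293 to 0.466 among those numbered 3; the median between different numbers was -0.449). Deviations from a group mean sum to 0 over the arrays of a group, so these values depend on one another. A shift of the arrays numbered 1 alone would also give positive values among numbers 2 and 3. Whether the numbers pair the arrays was thus not tested, and the block is given only as an alternative to the main fit. On simulated data 32, 78, 96 and 100% of genes changed by 0.5, 1, 2 and 3 on the log2 scale were recovered, 50 genes a size, for lymph node minus spleen on Xcr1++ arrays. The simulated noise was independent between arrays, and far fewer genes were changed than were called in the data. The rates therefore need not hold for these arrays. Figures used matplotlib 3.10.9 (Python 3.11.15).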

Additional observations from a re-analysis of the deposited data

How the results depend on the processing

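Slc38a1, Slc1a5, Slc7a1 and Slc7a8 kept their direction and stayed called in both tissue comparisons under all 25 alternatives run, with log2 differences of -3.26 to -2.72, -2.47 to -1.98, -2.07 to -1.49 and -2.62 to -1.92. No direction reversed for any of the members recomputed this way; genes of the other lists were not recomputed. Leaving out arrays moved the count of called members from 15 to between 8 and 18 on arrays labelled Xcr1++ and from 14 to between 5 and 20 on those labelled Xcr1Cre+. The share of all genes called moved too, from 26.1% to between 14.4% and 34.6%, and from 28.3% to between 15.5% and 38.5%. The lowest counts, 8 and 5, came without replicate 2 of every group, beside 15.5% and 15.5% of all genes. Without replicate 3 both were 9, beside 14.4% and 15.5% of all genes. These fits leave 2 arrays a group. Without replicate 2 the lost calls were Slc1a3, Slc1a4, Slc7a5, Slc36a3, Slc38a2, Slc43a2 and Slc43a3 on arrays labelled Xcr1++ (limma adjusted p 0.0543 to 0.216) and Slc1a2, Slc1a3, Slc7a7, Slc36a3, Slc36a4, Slc38a2, Slc38a6, Slc43a2 and Slc43a3 on those labelled Xcr1Cre+ (0.0519 to 0.116). Without replicate 3 they were Slc1a3, Slc1a4, Slc7a7, Slc38a2, Slc43a2 and Slc43a3 (0.0575 to 0.212), and Slc1a3, Slc36a4, Slc38a2, Slc38a6 and Slc43a2 (0.0530 to 0.365). The highest came without replicate 1. In the genotype comparisons and their difference between tissues every such count was 0. With the replicate number as a block, 18 members (7 higher, 11 lower) and 19 (8 higher, 11 lower) were called, all of the 15 and 14 among them, and beyond the genes named in the report this added Slc7a15, which was near background, on arrays labelled Xcr1Cre+; the block changed no other call. Fits with the block and without the arrays of 1 number were added after seeing the data. Array weights gave 21 and 21 members, beside 45.2% and 44.8% of all genes. The number of members near background in all groups was 12 or 24 at the 90th or 99th percentile of olfactory receptors and 2 against the highest of 3 Y-linked genes. Scalings moved the median of all genes by less than 0.1. Probe positions and the small number of arrays limit what can be said of Cd40 and of differences near the spread between arrays.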

Other observations

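Slc7a11, near background in all groups, reached 75.9 on 1 array, spleen Xcr1Cre+ replicate 1, and lay between 39.5 and 53.0 on the other 11. Of the 25 members above background in some group, on arrays numbered 1 Slc1a4, Slc1a5, Slc3a2, Slc7a6 and Slc38a6 had the lowest value of each of the 4 groups, and Slc38a8 had the highest. Of the 18 near background in all groups, 7 had their highest value on the array numbered 1 in each of the 4 groups (Slc1a1, Slc1a7, Slc7a2, Slc7a14, Slc38a3, Slc38a4 and Slc43a1), and 0 had their lowest.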
